A study of Mus musculus with 53 samples.

Results

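The genes described here encode the proton pump that acidifies lysosomes, the cathepsins that digest protein inside them, the LAMP proteins of their membrane and the autophagy proteins that bring cargo to them. The rule that finds them uses symbols and no measured value, although the group was put together with earlier results of these data known. Members are the protein-coding genes that the mouse annotation GENCODE M21 names as V-ATPase subunits (Atp6v0 and Atp6v1 genes), the accessory genes Atp6ap1 and Atp6ap2, cathepsins with a 1-character suffix, Lamp genes, Atg genes, Gabarap genes, Map1lc3a and Map1lc3b, Becn1, Ulk1, Ulk2 and Sqstm1. This gave 79 of the 37991 genes in the deposited table. Of these, 77 have a role in the groups below, and the other 2, Atp6v1fnb and Atg4a-ps, match by name only.

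The study sequenced RNA of 53 mouse libraries in 19 groups to learn how neuronal activity and adult plasticity affect transcription through the replacement of histones. The values used are those of 1 group, cortex tissue of C57bl/6 embryos at embryonic age E16.5, labelled as a control with no stimulation. Its 3 libraries were deposited as 1 column of means, so no value has an SD, nothing can be tested and no difference between genes can be set against a spread between libraries. Another 50 libraries, in 18 groups, are not analysed here.

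The table holds RPKM, which is a read count divided by gene length in kilobases and by depth in M reads. The length is that of the whole gene with its introns. Among low values of genes with several exons, 661 of 761 (86.9%) lay within 0.5% of the worth of 1 read in 1 library with the whole gene as length, against 35 of 1010 (3.47%) with exon length. The worth of 1 read was itself found from values with the whole gene as length, with no such search by exon length. The shares are therefore not an even comparison. The steps of 1 read put the libraries at 51.3, 64.8 and 71.6 M reads. A gene listed at 0 had no counted read, and a count of 0 allows an expected count of up to 3 reads over the libraries, which is 0.0160 RPM, or 0.00160 RPKM for a gene of 10 kb (counting error only). Since introns add to the length, the members' main levels are also given per kilobase of exon, as reads per M reads (RPM) divided by exon length, which takes every counted read to be exonic. An order between genes is given with its scale, or holds on both. The levels per kilobase of exon are less certain for 11 members whose span differs by more than 10% between GENCODE and RefSeq (Atg4b, Atg4c, Atg4d, Atg12, Atg16l2, Atp6v0e, Atp6v1g2, Atp6v1h, Becn1, Ctsc and Ctsl), and 30 members share exon bases with another gene, 15 of them over more than 10% of their exon. The tissue label was met by its markers: all 8 genes of post-mitotic cortical neurons and all 7 of radial glia reached 1 RPKM, with the neuronal Neurod6 at 194 RPKM and the radial glial Fabp7 at 102 RPKM. Red blood cell genes were present too, and 4 of 6 reached 1 RPKM.

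Lysosomes digest material at low pH. The V-ATPase pumps protons into them, using ATP in its V1 sector to turn a ring in its V0 sector that lies in the membrane. Acid lets the cathepsins work. In autophagy a membrane grows around cytoplasm under the ULK1 and Beclin complexes, carries lipid-linked ATG8 proteins (the LC3 and GABARAP proteins) and fuses with the lysosome, and neurons depend on this route because they cannot dilute waste by dividing.

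Most of these genes were detected in the embryonic cortex, and about as many lay above as below 1 RPKM. In the deposited values 41 of 79 members (51.9%) reached 1 RPKM, against 31.6% of the 20214 protein-coding genes. Per kilobase of exon 53 of 79 (67.1%) reached 1 RPM per kilobase, against 54.1% of protein-coding genes, and per kilobase of the longest transcript 54 members did, against 55.8%. At 0.5 RPKM the count was 46 members, against 41.1% of protein-coding genes. High levels were also held by a larger share of the members: 18 reached 5 RPKM (22.8%, against 9.62%), 10 reached 10 RPKM (12.7%, against 4.5%) and 30 reached 10 RPM per kilobase of exon (38.0%, against 20.9%). The median member, Atp6v0e, stood at 1.157 RPKM, against a median of 0.214 RPKM for all protein-coding genes. Per kilobase of exon the members' median was 6.78 RPM, that of Atg16l1, against 1.58 RPM. On the log2(RPKM + 0.1) scale the medians were 0.33 for the members and -1.67 for protein-coding genes. Just above 1 RPKM were Atp6v1h at 1.12 and Atp6v0e at 1.157 RPKM, and just below it Atg3 at 0.950 and Atg14 at 0.835 RPKM. Of the 79 members 10 (12.7%) were listed at 0, against 15.2% of protein-coding genes. Together the members held 0.477% of the reads of protein-coding genes, 41.9% of it in the V-ATPase, 45.4% in autophagy genes, 8.69% in cathepsins and 3.99% in LAMP genes.

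**Figure D1:**
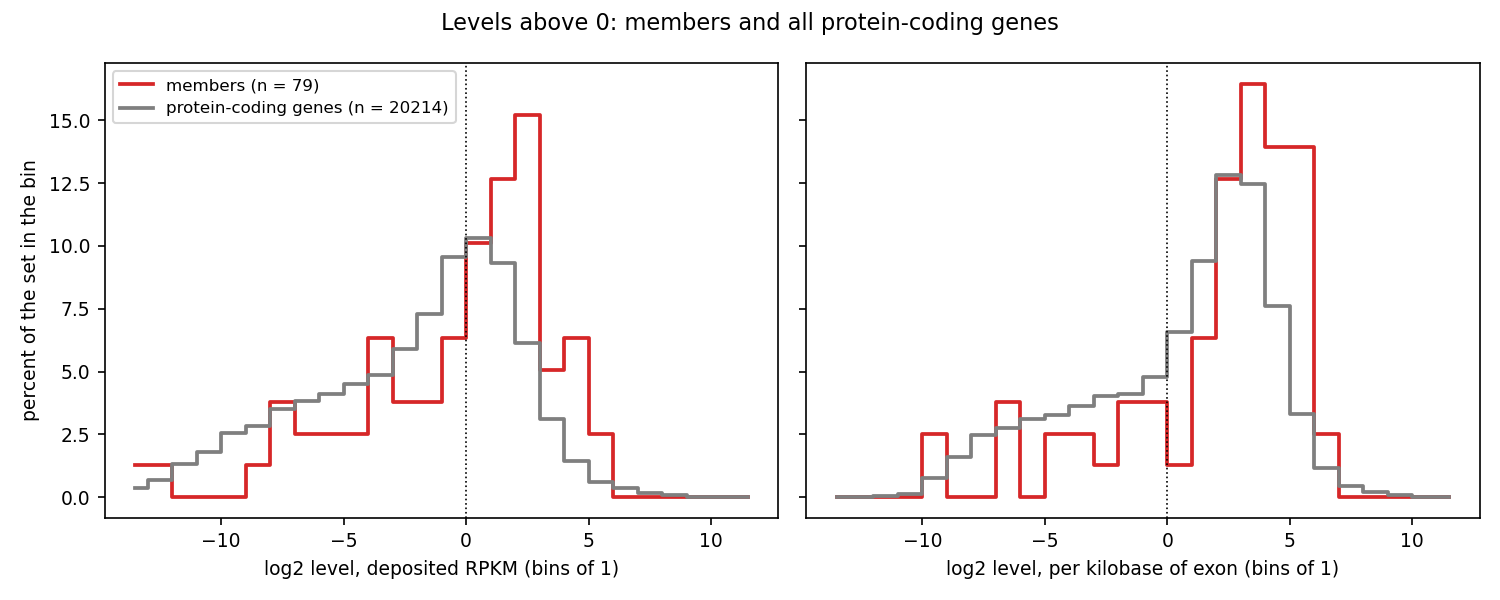
Share of the 79 members (red) and of the 20214 protein-coding genes (grey) in each bin of 1 on the log2 scale, left by deposited RPKM and right per kilobase of exon; genes listed at 0 are in no bin but count in the total. The members have a larger share of their genes to the right of 1 RPKM (dotted line, 51.9% against 31.6%).

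**Figure D2:**
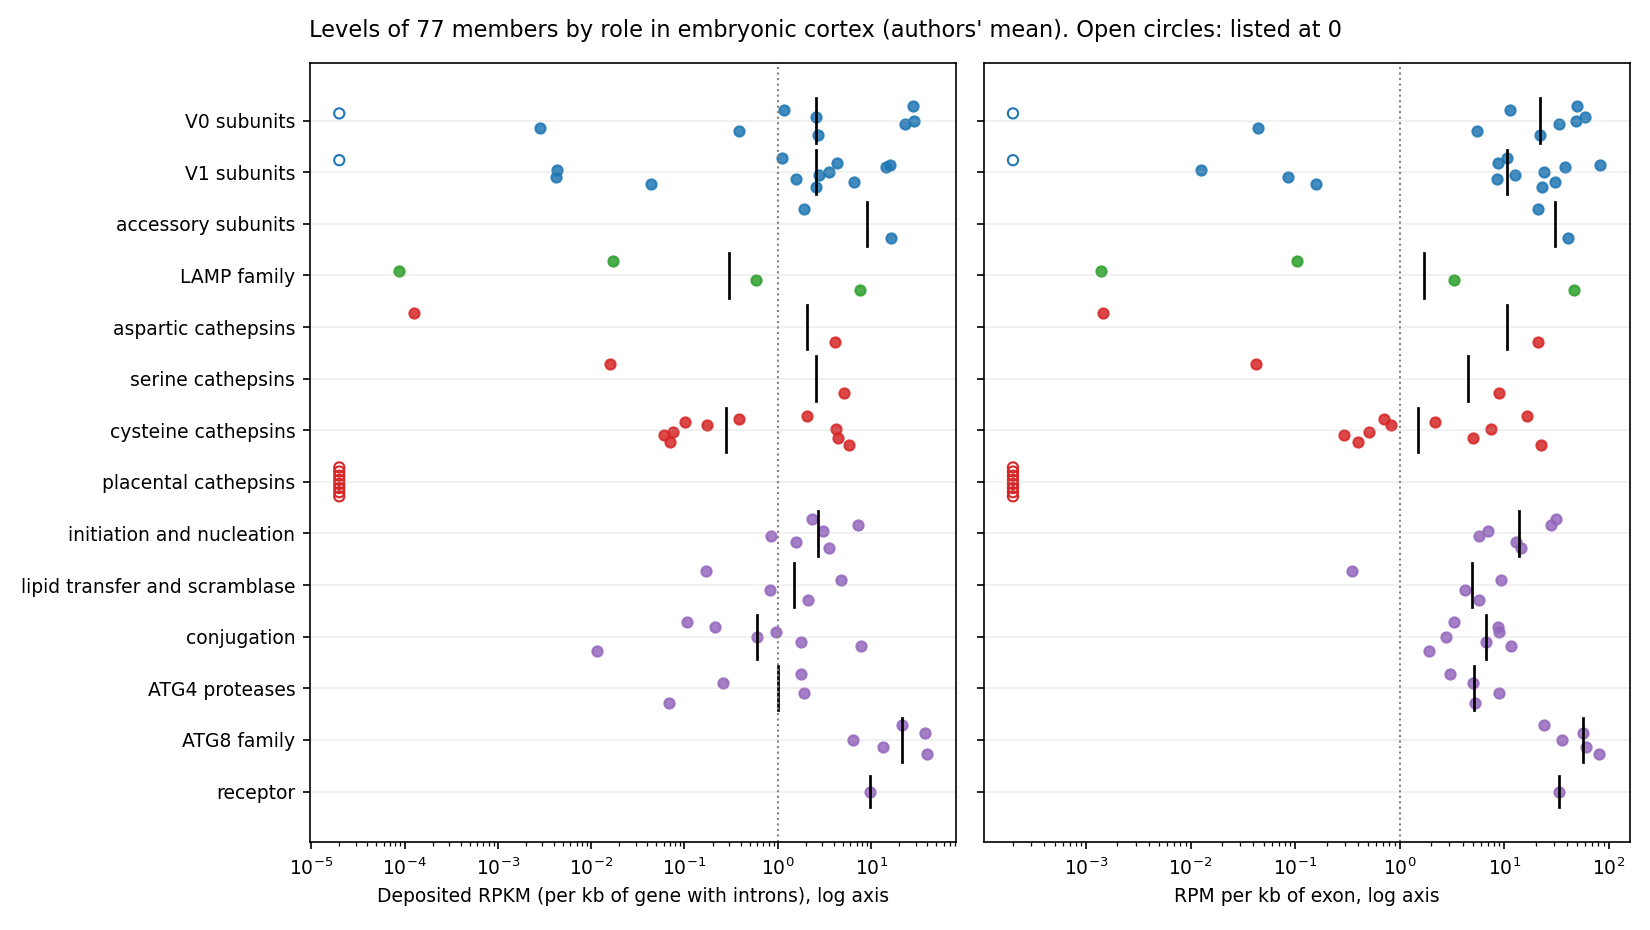
Level of each of the 77 members with a role, left in deposited RPKM and right in RPM per kilobase of exon, on log axes; each point is 1 gene, the black bar is the group's median, open circles at the left edge are genes listed at 0 and the dotted line is at 1. ATG8 genes lie together toward the high end, while the placental cathepsins are all open circles.

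Promoters of these genes were searched for the binding site of TFEB and its relatives, transcription factors known to switch on lysosomal genes through the CLEAR element. A RefSeq promoter window (GRCm38.p6, 250 bases before to 50 after the gene's start, 71 windows) was found for 64 of the 79 members. The 8-base core TCACGTGA with G before it and C after it, the full palindrome of 10 bases, was in none of them and in 0.520% of the 15585 protein-coding genes with a window. The core alone was in 6 of 64 (9.38%), against 1.52% of protein-coding genes, and the shorter E-box CACGTG, which the core contains, was in 13 of 64 (20.3%), against 9.54%. All these motifs read the same on both strands. These shares are a description with no test, and a match says nothing of binding. The 6 genes with the core were Ctsa, Ctsd, Atp6v0d1, Atp6v1a, Atp6v0e and Atg3. The 13 genes with an E-box, which add Atp6v0b, Lamp1, Ctsf, Ctsl, Atg14, Atg5 and Atg7, had a median of 2.58 RPKM and 8.96 RPM per kilobase of exon, and the 51 without one 0.577 RPKM and 3.33 RPM per kilobase of exon. None of the 13 was listed at 0, and 9 of the 51 were, 8 of them the placental cathepsins described below. Without those 8, the 43 other genes with no E-box had a median of 1.78 RPKM and 5.72 RPM per kilobase of exon. Over all protein-coding genes with a window, the 1486 with an E-box had a median of 0.650 RPKM and the 14099 without one 0.214 RPKM.
The 4 members with the core that were highest in RPKM are shown because they include both genes of the pump and genes of the proteases. Each line gives 60 bases before the first match to 20 after it, 5′ to 3′ on the gene's strand, with the core in capitals.
Ctsa (chr2:164833700-164833787, plus strand): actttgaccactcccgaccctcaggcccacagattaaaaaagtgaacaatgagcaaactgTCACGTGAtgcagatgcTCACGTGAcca
Ctsd (chr7:142387899-142387986, minus strand): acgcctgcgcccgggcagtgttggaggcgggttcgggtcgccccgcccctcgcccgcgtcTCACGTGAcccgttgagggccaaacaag
Atp6v0d1 (chr8:105566041-105566128, minus strand): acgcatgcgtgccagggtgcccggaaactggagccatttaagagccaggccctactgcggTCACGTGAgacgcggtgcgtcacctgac
Atp6v1a (chr16:44139364-44139451, minus strand): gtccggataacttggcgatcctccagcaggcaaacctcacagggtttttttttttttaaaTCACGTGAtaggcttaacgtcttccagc
Ctsa carries the core at a pair of places with 9 bases between them. Of the 4 factors themselves, Tfe3 stood at 1.90 RPKM, while Tfeb stood at 0.0136, Mitf at 0.00404 and Tfec at 0.000851 RPKM. Tfe3 had 2.59 RPM and Tfeb 0.133 RPM per kilobase of exon.

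Every one of the 13 subunits of the V-ATPase had 1 RPKM or more when isoforms were summed. Of single protein-coding genes 31.6% reached that level, and sums over isoforms have no such background here. The membrane sector V0 was led by the proteolipid gene Atp6v0c, which forms most of the proton-carrying ring, at 28.5 RPKM, and by Atp6v0e2, an isoform of the small e subunit, at 28.4 RPKM. Atp6v0b, the ring's c'' subunit, stood at 23.0 RPKM. The a subunit, which holds the proton channel, was mostly Atp6v0a1 at 2.67 RPKM (a further isoform, Tcirg1, is no member by its name and had 0.635 RPKM), and the stalk subunit d was Atp6v0d1 at 2.58 RPKM. Both of these genes have long introns, and per kilobase of exon Atp6v0d1 was the highest V0 gene at 59.9 RPM, ahead of Atp6v0e2 (49.9), Atp6v0c (49.1), Atp6v0b (33.7) and Atp6v0a1 (22.1). A pseudogene of Atp6v0c, Atp6v0c-ps2, had 0.167 RPKM.

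In the catalytic sector V1, Atp6v1g1, a subunit of the peripheral stalk, led with 15.8 RPKM and 83.4 RPM per kilobase of exon. Atp6v1f, of the central stalk, followed with 14.4 RPKM and 37.9 RPM per kilobase of exon. The ATP-hydrolysing core is built from A and B subunits: Atp6v1b2 stood at 6.56 RPKM and Atp6v1a at 2.55 RPKM, or 31.0 and 22.9 RPM per kilobase of exon. Atp6v1g2, known as the neuronal G isoform, stood at 4.32 RPKM (8.80 RPM per kilobase of exon) and Atp6v1e1, of the same stalk, at 3.51 RPKM (24.3). Atp6v1d, of the central stalk, stood at 2.79 RPKM (12.7), Atp6v1c1 at 1.58 RPKM (8.58) and Atp6v1h, which restrains free V1, at 1.12 RPKM (10.6). The accessory genes were Atp6ap1 at 16.2 RPKM and Atp6ap2, the (pro)renin receptor, at 1.89 RPKM, or 40.8 and 21.1 RPM per kilobase of exon.

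With isoforms summed, the levels per kilobase of exon spread over the pump from 8.67 RPM for subunit C to 92.2 RPM for subunit G, with a median of 31.2. The 5 subunits that the assembled pump holds in several copies (A, B, E, G and c) had a median of 31.2 RPM per kilobase of exon, and the 8 held in 1 copy 30.7. In RPKM these medians were 6.61 and 2.92. Subunits of V0 had a median of 49.1 RPM per kilobase of exon and those of V1 23.7, with overlapping ranges of 27.6 to 61.2 for V0 and 8.67 to 92.2 for V1.

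**Figure D3:**
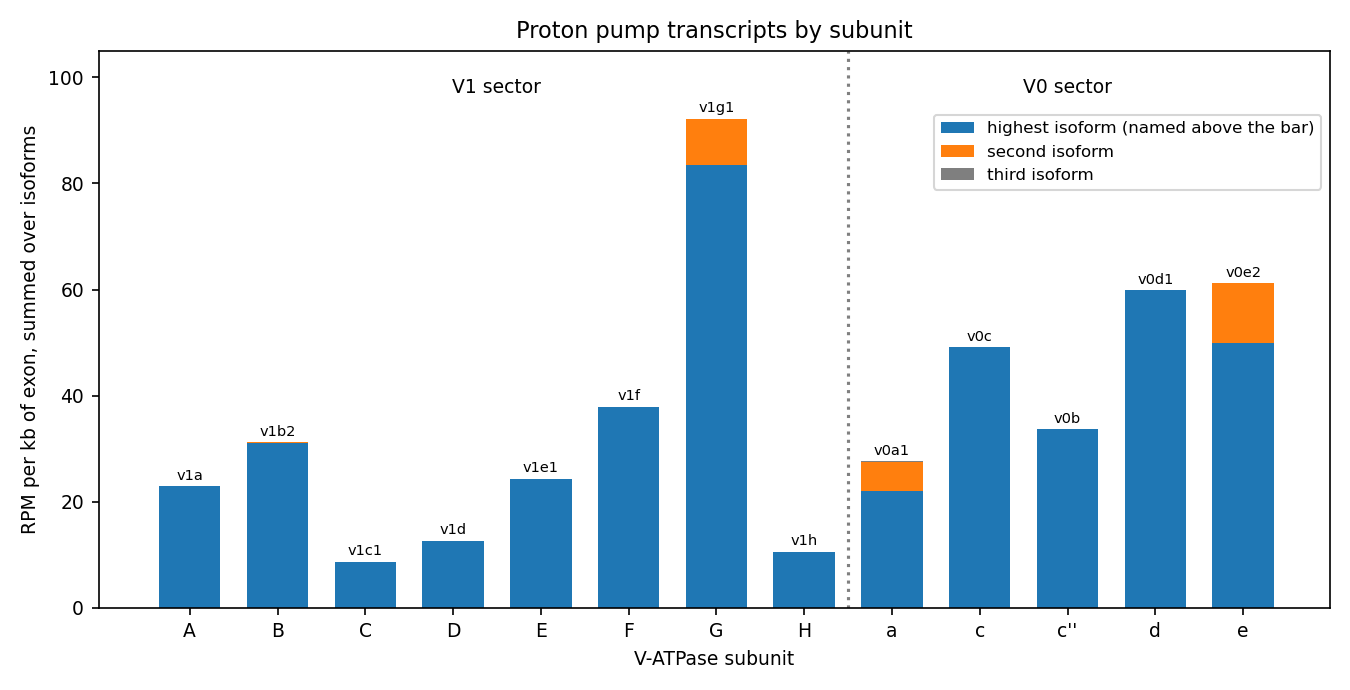
Transcript level of each V-ATPase subunit in RPM per kilobase of exon, stacked by isoform, with V1 subunits left and V0 subunits right. Subunit G has the tallest bar (92.2) and subunit C the shortest (8.67). Where a subunit has several genes among the members, 1 isoform makes up most of its bar.

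Subunits A, D, F, H, c and c'' have 1 gene each among the members. In each of the other subunits a single isoform carried most of the level. Per kilobase of exon the smallest such share was 80.1%, for Atp6v0a1 in subunit a, with Tcirg1 not counted. Among the members, 6 isoforms known from kidney, osteoclasts or testis were at or near 0. Atp6v1b1 (0.0441 RPKM), Atp6v1e2 (0.00431), Atp6v1c2 (0.00419) and Atp6v0a4 (0.00286) were the detected ones, and Atp6v0d2 and Atp6v1g3 were listed at 0. These 6 were put together after their values were seen, and they leave out Tcirg1, the a3 isoform of osteoclasts, which is no member. Tcirg1 stood higher, at 0.635 RPKM and 1.53 RPM per kilobase of exon. The other 16 subunit genes among the members ranged upward from 0.383 RPKM. Of all 22 subunit genes 15 reached 1 RPKM, against 31.6% of protein-coding genes, and all 15 are among these 16. As the 6 isoforms were set apart with their values known, the gap to the other 16 is no separate result. Markers of the cells known for such isoforms were low. The 4 kidney intercalated cell genes had a median of 0.00351 RPKM and the 4 osteoclast genes 0.00328 RPKM, with Foxi1 and Dcstamp listed at 0. Atp6v1b2 exceeded Atp6v1b1 149-fold in RPKM and 194-fold per kilobase of exon. Atp6v1c1 exceeded Atp6v1c2 376-fold in RPKM and 99.8-fold per kilobase of exon. Atp6v0a1 was 934-fold above Atp6v0a4 in RPKM and 505-fold by exon length. It was 6.98-fold above Atp6v0a2 (0.383 RPKM), which serves the Golgi and endosomes, in RPKM and 4.05-fold by exon length. Atp6v1e2 had the worth of 3 reads, so the 814-fold excess of Atp6v1e1 has a counting interval of 285 to 4039 (95%, exact binomial, counting error only).

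Isoforms known from brain were not always ahead. Atp6v0e2, rich in brain, was 24.5-fold above the ubiquitous Atp6v0e in RPKM and 4.39-fold by exon length. The neuronal Atp6v1g2 was below the ubiquitous Atp6v1g1, which exceeded it 3.66-fold in RPKM and 9.48-fold by exon length. Of the accessory pair, Atp6ap1 was 8.57-fold above Atp6ap2 in RPKM and 1.93-fold per kilobase of exon.

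**Figure D4:**
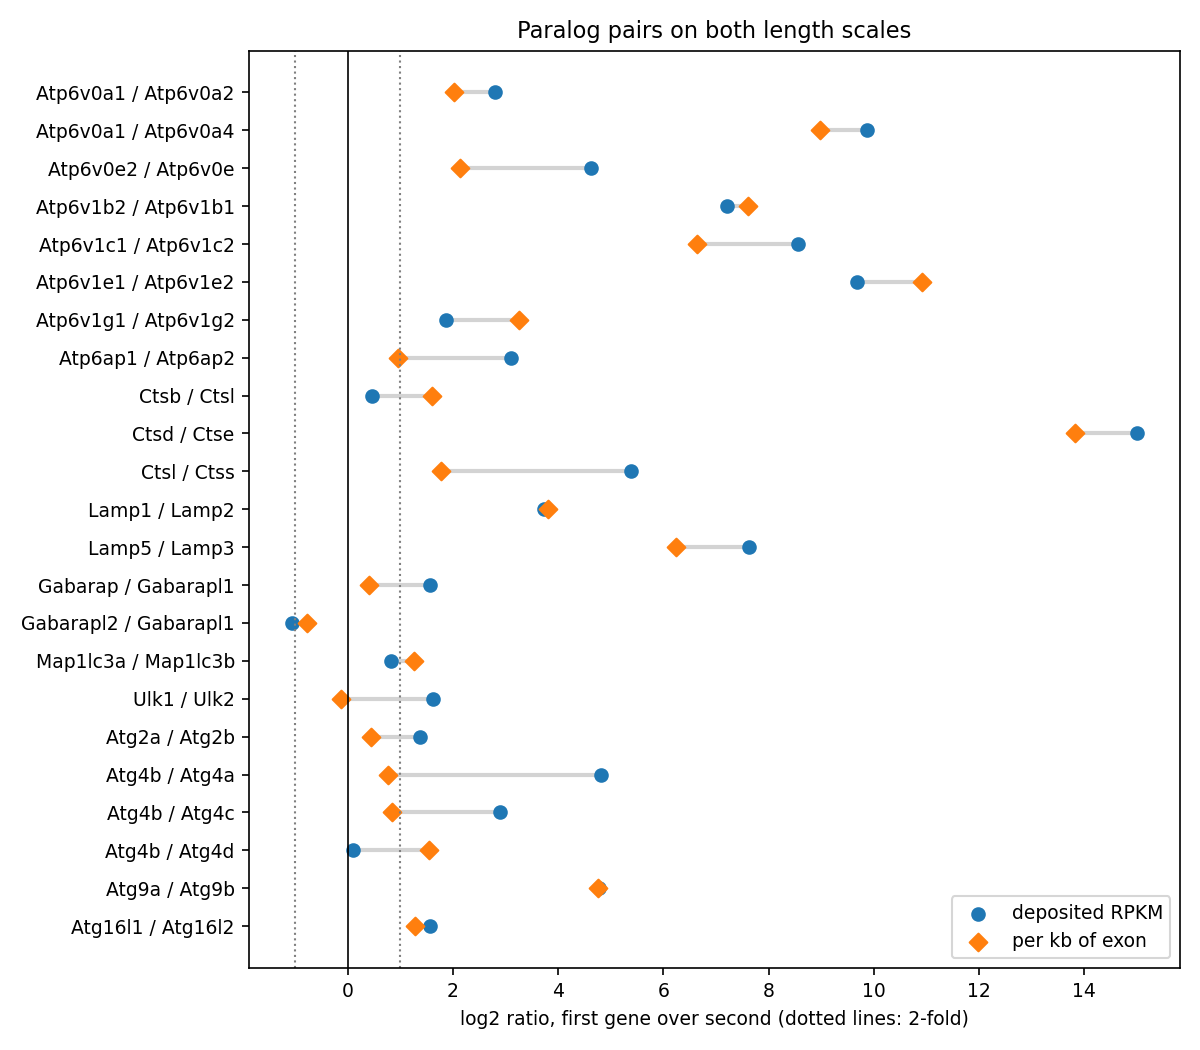
Log2 ratio of the first gene over the second in 23 paralog pairs, by deposited RPKM (blue circles) and per kilobase of exon (orange diamonds), with 2-fold marked by dotted lines. The tissue-restricted pump isoforms, Ctse, Lamp3 and Atg9b lie far below their paralogs on both scales, while Ulk1 over Ulk2 crosses 0.

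Cathepsins were split between a few common genes and many at or near 0. Of 22 genes, 6 (27.3%) reached 1 RPKM, a share near the 31.6% of all protein-coding genes. The 22 include the 8 placental genes described below, all listed at 0. Of the 14 cathepsins outside that cluster, the same 6 reached 1 RPKM. The cysteine proteases among the 6 were Ctsb (5.82 RPKM), Ctsf (4.42), Ctsl (4.20) and Ctsz (2.05). The others were the carboxypeptidase Ctsa, which also shields sialidase and galactosidase, at 5.14, and the aspartic protease Ctsd at 4.13. Per kilobase of exon the order was led by Ctsb at 22.6, Ctsd at 21.3 and Ctsz at 16.46 RPM, which made up 69.5% of the summed cathepsin level. Ctsa followed with 8.90, Ctsl with 7.48 and Ctsf with 5.08 RPM. In the later annotation Ctsd shares 34.4% of its exon bases with the gene Gm49369 on its own strand and Ctsl shares 26.8% with Gm49230 and Gm47123, so reads there could belong to either gene.

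The 8 cathepsins of the rodent placental cluster, Ctsj, Ctsm, Ctsq, Ctsr, Cts3, Cts6, Cts7 and Cts8, were all listed at 0. They are close in sequence, so reads that fit several of them may not have been counted. Of 5 placental trophoblast markers, Prl3b1, Prl2c2 and Tpbpa were also listed at 0 and the other two were at most 0.00783 RPKM. Ctse, the other aspartic protease, had the worth of 1 read, against an estimated 9401 reads of Ctsd. The ratio of Ctsd to Ctse was 32994 in RPKM, with a counting interval of 5175 to 1139160. Ctsg, a granule protease of neutrophils, stood at 0.0161 RPKM from about 8 reads, and none of the 7 neutrophil and mast cell markers reached 1 RPKM. They ranged up to 0.283 RPKM for Prtn3, with a median of 0.00344 RPKM and with Elane and Mcpt4 listed at 0. The part of blood cells in the level of Ctsg was not tested.

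The 4 cathepsins taken here as known from immune cells, Ctss, Ctsw, Ctsc and Ctsh, were under 1 RPKM. This group was not planned in advance and is not a full list of the cathepsins of immune cells. Ctss, highest in microglia of adult brain, stood at 0.1002 RPKM but at 2.18 RPM per kilobase of exon, above the protein-coding median of 1.58. Ctsw, of cytotoxic lymphocytes, stood at 0.388 RPKM, above the protein-coding median of 0.214, and at 0.713 RPM per kilobase of exon. Ctsc, which activates granule proteases, stood at 0.0704 RPKM (0.398 RPM per kilobase of exon) and Ctsh at 0.0597 RPKM (0.291), below both medians. Ctsk, the collagen-digesting protease of osteoclasts, stood at 0.0761 RPKM (0.509) and Ctso at 0.175 RPKM (0.825). Microglia and macrophage markers were present in the same tissue. Of 13, 2 reached 1 RPKM (15.4%, against 31.6% of protein-coding genes). Their median was 0.274 RPKM and their sum 6.04 RPKM, from Cd68 at 1.81 down to Ptprc at 0.00689 RPKM. Per kilobase of exon 9 of 13 reached 1 RPM, against 54.1% of protein-coding genes. On that scale the median was 1.74 RPM, from Cx3cr1 at 10.2 down to Ptprc at 0.0424 RPM. No marker of that list was at 0. The part of microglia in the levels of these cathepsins was not tested, and in tissue fewer cells of a type and less RNA per cell cannot be told apart. Ctsl exceeded Ctss 42.0-fold in RPKM and 3.42-fold per kilobase of exon, and Ctsb exceeded Ctsl 1.38-fold in RPKM and 3.01-fold per kilobase of exon.

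Lamp1 was the main LAMP gene of the tissue. It stood at 7.66 RPKM and 46.3 RPM per kilobase of exon. The latter is 93.1% of the sum over the 4 Lamp genes among the members, and genes with other names are not counted. Lamp2, which also takes part in chaperone-mediated autophagy, stood at 0.577 RPKM and 3.33 RPM per kilobase of exon. Lamp1 was thus 13.3-fold above it in RPKM and 13.9-fold per kilobase of exon. Lamp5, a brain member known from cortical neurons, stood at 0.0173 RPKM from about 57 reads. Lamp3, of dendritic cells and lung, had the worth of 1 read, and the 197-fold excess of Lamp5 has a counting interval of 29.5 to 6866.

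The ATG8 family held the 4 highest autophagy transcripts in RPKM, and all 5 genes passed 5 RPKM, against 9.62% of protein-coding genes. Gabarap stood at 39.4 RPKM, the highest of all members and above 99.0% of protein-coding genes. Map1lc3a, encoding LC3A, followed at 37.9, Map1lc3b at 21.4, Gabarapl1 at 13.4 and Gabarapl2 at 6.39 RPKM. Per kilobase of exon Gabarap again led with 81.3 RPM, then Gabarapl1 with 61.1, Map1lc3a with 57.0, Gabarapl2 with 35.5 and Map1lc3b with 23.9 RPM. Gabarap was thus above Gabarapl1 (2.94-fold in RPKM, 1.33-fold per kilobase of exon) and Map1lc3a above Map1lc3b (1.77-fold and 2.38-fold) on both scales. Gabarapl1 shares 28.3% of its exon bases with a gene on the other strand, and the labels do not say whether counting used strand. Sqstm1, encoding the cargo receptor p62 that binds ubiquitin and the ATG8 proteins, stood at 9.71 RPKM and 33.2 RPM per kilobase of exon.

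Of the 6 members grouped under initiation and nucleation of autophagy, 5 reached 1 RPKM, against 31.6% of protein-coding genes. They are not all the genes of these steps. Of those beyond the rule, Rb1cc1 had 1.35 RPKM, while Pik3c3 (0.731), Pik3r4 (0.696), Ambra1 (0.392) and Uvrag (0.0807) were under 1 RPKM. Ulk1 lay above 93.5% of protein-coding genes in RPKM. The kinase gene Ulk1 stood at 7.17 RPKM and its paralog Ulk2 at 2.35 RPKM, a ratio of 3.06, but per kilobase of exon Ulk1 had 28.3 and Ulk2 31.2 RPM, so their order depends on the length used. Their partners Atg101 and Atg13 stood at 3.49 and 1.58 RPKM, or 14.6 and 12.98 RPM per kilobase of exon. Becn1, of the lipid kinase complex that marks the new membrane, stood at 3.01 RPKM and its partner Atg14 at 0.835 RPKM, or 6.96 and 5.75 RPM per kilobase of exon. Becn1 shares 43.9% of its exon bases with Cntd1 on the other strand. For growth of the membrane, Atg9a, a lipid scramblase, stood at 4.74 RPKM (9.32 RPM per kilobase of exon) and the lipid transfer genes Atg2a and Atg2b at 2.13 and 0.823 RPKM (5.72 and 4.23). Atg9a exceeded Atg9b (0.172 RPKM) 27.6-fold in RPKM and 26.9-fold by exon length.

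The 7 conjugation genes, whose products attach ATG8 proteins to lipid, had a median of 0.603 RPKM, against 0.214 RPKM for all protein-coding genes. Of the 7, 2 reached 1 RPKM, against 31.6% of protein-coding genes, and several are long genes. Atg12, the ubiquitin-like protein joined to ATG5, stood at 7.84 RPKM, and Atg16l1, which places the complex on the membrane, at 1.78 RPKM. The E2-like enzyme gene Atg3 stood at 0.950, Atg16l2 at 0.603, Atg5 at 0.215, the E1-like enzyme gene Atg7 at 0.106 and the other E2-like gene Atg10 at 0.0115 RPKM. Per kilobase of exon the same 7 genes lay between 1.92 RPM for Atg10, which spans 288613 bases, and 11.6 RPM for Atg12, with Atg3 at 8.96, Atg5 at 8.76, Atg16l1 at 6.78, Atg7 at 3.304 and Atg16l2 at 2.79 RPM. Of the ATG4 proteases, which trim and release ATG8 proteins, Atg4b led with 1.90 RPKM and 8.96 RPM per kilobase of exon. Atg4d stood at 1.78, Atg4c at 0.256 and Atg4a at 0.0677 RPKM, and per kilobase of exon at 3.05, 5.03 and 5.28 RPM. Over all roles 12 members (15.2%) were under 1 RPKM but at 1 RPM or more per kilobase of exon, against 22.5% of protein-coding genes. Across the 69 members above 0, Spearman's rho between gene span and RPKM was -0.44, and -0.20 with the level per kilobase of exon, a description over genes that share their libraries.

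In the 25 paralog pairs, 2 second genes were listed at 0 (Atp6v0d2 and Atp6v1g3) and 23 pairs had a ratio. Of these, 20 were past 2-fold in RPKM and 13 were past 2-fold in the same order on both scales. The order turned in 1 pair, Ulk1 and Ulk2.

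Further genes of the pathway, in 4 lists, are named by their RPKM. Of 28 hydrolases other than cathepsins, 12 reached 1 RPKM, with a median of 0.830 RPKM, against 31.6% of protein-coding genes at that level. Highest in RPKM were the heparan and dermatan sulfatase Ids (10.1 RPKM), the sphingomyelinase Smpd1 (7.53) and the sialidase Neu1 (4.75), with the mannosidase Manba lowest at 0.0202 RPKM. By exon length Ids stayed first at 43.6 RPM per kilobase, but Ppt1 (12.1), Hexa (11.7) and Gaa (10.4) lay above Smpd1 (9.09) and Neu1 (5.98), and Manba was again lowest. Of 15 further membrane and cofactor genes, 10 reached 1 RPKM, with Psap, the precursor of the saposins that help lipid digestion, at 15.2, Laptm4a at 10.6, the cholesterol carrier Npc2 at 4.29 and Laptm4b lowest at 0.123 RPKM, while per kilobase of exon Cln3 (2.68 RPM) lay below Laptm4b (2.93). Of 22 other autophagy genes, 12 reached 1 RPKM, with the receptors Calcoco1 at 7.39 and Nbr1 at 7.11, the scaffold Wdr45 at 3.36 and Uvrag lowest at 0.0807 RPKM. By exon length Nbr1 (30.9 RPM per kilobase) was above Calcoco1 (19.9), and Vamp8 (0.468) was below Uvrag (2.29). Of 8 other V-ATPase genes, Rogdi and Dmxl2, whose products help assemble the pump, reached 1 RPKM at 5.95 and 1.54 RPKM (12.3 and 15.8 RPM per kilobase of exon), followed by Tcirg1, the a3 isoform of osteoclasts, at 0.635, with Atp6ap1l lowest at 0.0219 RPKM.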

How the data were processed

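RNA of the embryonic cortex was sequenced from TruSeq libraries on an Illumina HiSeq, per the labels' protocols. The authors deposited 1 column of RPKM, the mean of 3 libraries per the file header and labels. The submitters' processing notes name TopHat2 2.0.9 and Bowtie2 2.1.0, HTSeq 0.6.0, DESeq 1.16.0 and Cuffdiff 2.0.2, with no role, and the mouse build mm9 (NCBIM37). Which of them made the values, the strand setting and whether the libraries came from separate animals are not given in the sources used here.

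Symbols, spans and exon lengths came from GENCODE M21, a later build, matched by gene ID for 32919 of 37991 genes; the other 5072 held 2.30% of the summed RPKM. RPM was RPKM times the span in kilobases. Exon length was the union of all exons. Library totals came from the 3 fullest peaks of low values, a step tested on simulated counts. Ratios are of values with no pseudocount. Medians are of the values themselves, except where the log2(RPKM + 0.1) scale is named, which understates differences of low genes. Python 3.11.15, numpy 2.4.6, scipy 1.17.1 and pandas 2.3.3 were used. No test was possible with 1 column.

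All members are named except that Atp6v1fnb and Atg4a-ps get no account by role; of each other pathway list the 3 genes highest in RPKM and the lowest above 0 are named. Of the lists of cell markers only some genes are named, and these and any gene beyond the rule were chosen after their values were seen. Of 5 endothelial markers 1, Cldn5, reached 1 RPKM. Members, lists and pairs were chosen with earlier results of these data known. Promoter sequences are RefSeq's (GRCm38.p6). The alternatives were other thresholds, pseudocounts, lengths and summaries.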

Additional observations from a re-analysis of the deposited data

How the results depend on the processing

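No paired analysis was possible because the 1 deposited column is a mean, and for the same reason single replicates could not be left out. The count of 41 members at 1 RPKM fell to 18 at 5 RPKM (9.62% of protein-coding genes) and stayed within 1.5 times under the other settings, from 33 of 68 with gene models of like length in GENCODE and RefSeq, an alternative chosen after seeing the data, to 54 per kilobase of the longest transcript. The members' median of 0.33 on the log2(RPKM + 0.1) scale became 1.11 with a pseudocount of 1, 0.22 with 0.01, 0.99 over members above 0, 0.069 as a mean, 2.78 per kilobase of exon, 3.16 per kilobase of the longest transcript, 0.31 without Gabarap and -0.013 with like gene models; the protein-coding median was lower under each, the last with its background of all genes. Of 23 pairs, the 20 past 2-fold became 16 per kilobase of exon, 18 by the longest transcript and 19 with a pseudocount of 0.1 or by reads; 21 were past 1.5-fold and 14 past 4-fold, and of the 15 pairs with like gene models 14 were past 2-fold. The log2 ratio of Ulk1 over Ulk2, 1.61 in RPKM, was -0.14 per kilobase of exon and -0.020 by reads with no length, and that of Atg2a over Atg2b, 1.37 in RPKM, was -0.13 per kilobase of the longest transcript and -0.37 by reads; these differ by the length used, by construction. Map1lc3a over Map1lc3b, 0.82 in RPKM, was -1.42 by reads. No further pair turned. Depth does not limit the common members, while Ctse and Lamp3 rest on 1 read each. Exon lengths may differ from those of the authors' annotation.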

Other observations

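The signalling machinery that sits on lysosomes was present in the same tissue. Of 16 genes of the lysosomal mTORC1 machinery, which senses amino acids and restrains autophagy, 11 reached 1 RPKM. That is 68.8%, against 31.6% of protein-coding genes, and the median was 2.34 RPKM. In RPKM the GTPase gene Rraga was highest at 38.1, Lamtor1, which anchors the Ragulator complex, had 8.03 and Lamtor2 6.82 RPKM, while Rptor, a long gene, was lowest at 0.187 RPKM and had 4.13 RPM per kilobase of exon. By exon length Lamtor1 (51.9 RPM per kilobase) was above Rraga (38.1), Lamtor5 (30.5) was above Lamtor2 (18.2), and Rptor was again lowest. All 16 had at least 1 RPM per kilobase of exon, against 54.1% of protein-coding genes. Of 9 cathepsin inhibitors, cystatin C (Cst3) stood at 17.0 RPKM and cystatin B (Cstb) at 6.53 RPKM, both above every cathepsin in RPKM and, for Cst3, per kilobase of exon (53.3 RPM, against 22.6 RPM for Ctsb). The third, Serpinb6a, had 0.145 RPKM and the lowest, Csta1, 0.000455 RPKM.

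The members with no role had little signal: Atp6v1fnb stood at 0.00483 RPKM, the worth of 2 reads, and Atg4a-ps at 0.0142 RPKM.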
